A study of Mus musculus with 6 samples.

Results

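Genes of TGF-beta and activin signalling were examined in primary fibroblasts of mouse embryos that differed at exon 2 of Cas. The set held 10 genes, chosen by name. They were the ligand genes Tgfb1, Tgfb2, Tgfb3 and Inhba, the receptor genes Tgfbr1, Tgfbr2 and Tgfbr3, the latent binding protein genes Ltbp1 and Ltbp2, and Smad3, which encodes an intracellular mediator. All probe sets annotated to 1 of these symbols were used, which gave 24 of the 45101 probe sets on the array and 10 of its 18193 named genes. Cas (p130Cas, gene symbol Bcar1) is a docking protein of integrin adhesions. The fibroblasts were wild type (Cas exon 2+/+), heterozygous (Cas exon 2+/∆) or homozygous (Cas exon 2∆/∆) for a germline deletion of exon 2. Each genotype had 2 embryos with 1 Affymetrix array each, 6 arrays in all. The cells came from the bodies of embryos of heterozygote intercrosses at 12.5 days post coitum, without heads and inner organs, and the strain was labelled B6 for 5 of the 6 arrays. Of the other array, wild type 1, the labels give no strain. All cultures were kept in medium with fetal calf serum.

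TGF-beta is secreted in a latent form. Its cleaved propeptide stays wrapped around the ligand and is tied to the matrix by latent binding proteins such as that encoded by Ltbp1, and traction by integrins or proteolysis sets the ligand free. The active ligand joins the type II receptor (Tgfbr2) with the type I kinase (Tgfbr1), often presented by betaglycan (Tgfbr3), and the type I kinase phosphorylates Smad2 and Smad3, which then act on genes with Smad4. In fibroblasts the pathway is known for driving matrix production and the contractile myofibroblast state. Inhba encodes the subunit of activin A, which signals through other receptors to the same Smads.

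Levels are log2(intensity + 1.78) after quantile normalization, so 1 unit is a doubling of signal. They compare the same probe set across arrays and not one gene with another. The median deposited intensity lay between 21.9 and 27.3 on the 6 arrays, and the number of arrays limits the precision. The targeted gene Bcar1 had levels of 9.37 and 8.42 in the wild-type, 8.19 and 8.32 in the heterozygous and 8.08 and 8.43 in the homozygous cultures. The sources used here do not say which exons its probe sets cover, so these levels check neither genotype nor label. They differed by -0.32 (SE 0.31, limma adjusted p = 1) between homozygotes and the others. All 9 fibroblast markers listed (such as Vim, Thy1 and Pdgfrb) were above the intensity filter. The muscle regulators Myod1 and Myog and the endothelial genes Pecam1 and Cdh5 were below it. Other markers of these lineages passed it, so that 2 of 7 skeletal muscle, 3 of 7 endothelial and 3 of 6 epithelial markers were above the filter. Of the listed macrophage markers 16 of 18 were above it. The summed intensity of all 18 was 3421 and 8197 in the wild-type, 6303 and 5591 in the heterozygous and 18523 and 8374 in the homozygous cultures, and no defining marker (Cd68, Ptprc, Csf1r, Adgre1) was at 0. The summed fibroblast markers were at 29102 and 31963, 37323 and 35534, and 40176 and 36266. By Xist and Y-linked genes both homozygote cultures were male, both heterozygote cultures female, and wild type held 1 female (wild type 1) and 1 male culture. Wild type 1 was less clear, with Xist at 8.82 against 10.27 and 10.29 in the heterozygotes and the Y-linked Eif2s3y at 3.61, above both heterozygotes and below the male cultures at 8.37 to 8.76. Sex and genotype cannot be told apart between homozygotes and heterozygotes. Wild type 1 was the lowest array for 26.6% of 11373 genes and the highest for 24.4%, and these shares were not computed for the other arrays. Among the 10 genes it was the lowest array for 4 and the highest for 3.

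None of the 10 genes differed between genotypes by limma's moderated F-test with Benjamini-Hochberg adjustment over 22519 probe sets (adjusted p = 1 for each, 0 genes also at an unadjusted p under 0.05). The same test called 0% of all probe sets, and 3.29% had an unadjusted p under 0.05. Counted by gene, 307 of 11373 had one. The members nonetheless showed distinct patterns over the arrays. Tgfb1 and Smad3 varied least over the 6 cultures. Tgfb3 was highest in both heterozygote cultures, and all 3 receptor genes averaged higher in both mutant genotypes than in wild type. In 7 of the 10 genes the largest gap between embryos of 1 genotype exceeded the largest gap between genotype means. These were Tgfb1, Tgfb2, Inhba, Ltbp2, Smad3 and the receptor genes Tgfbr2 and Tgfbr3.

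**Figure D1:**
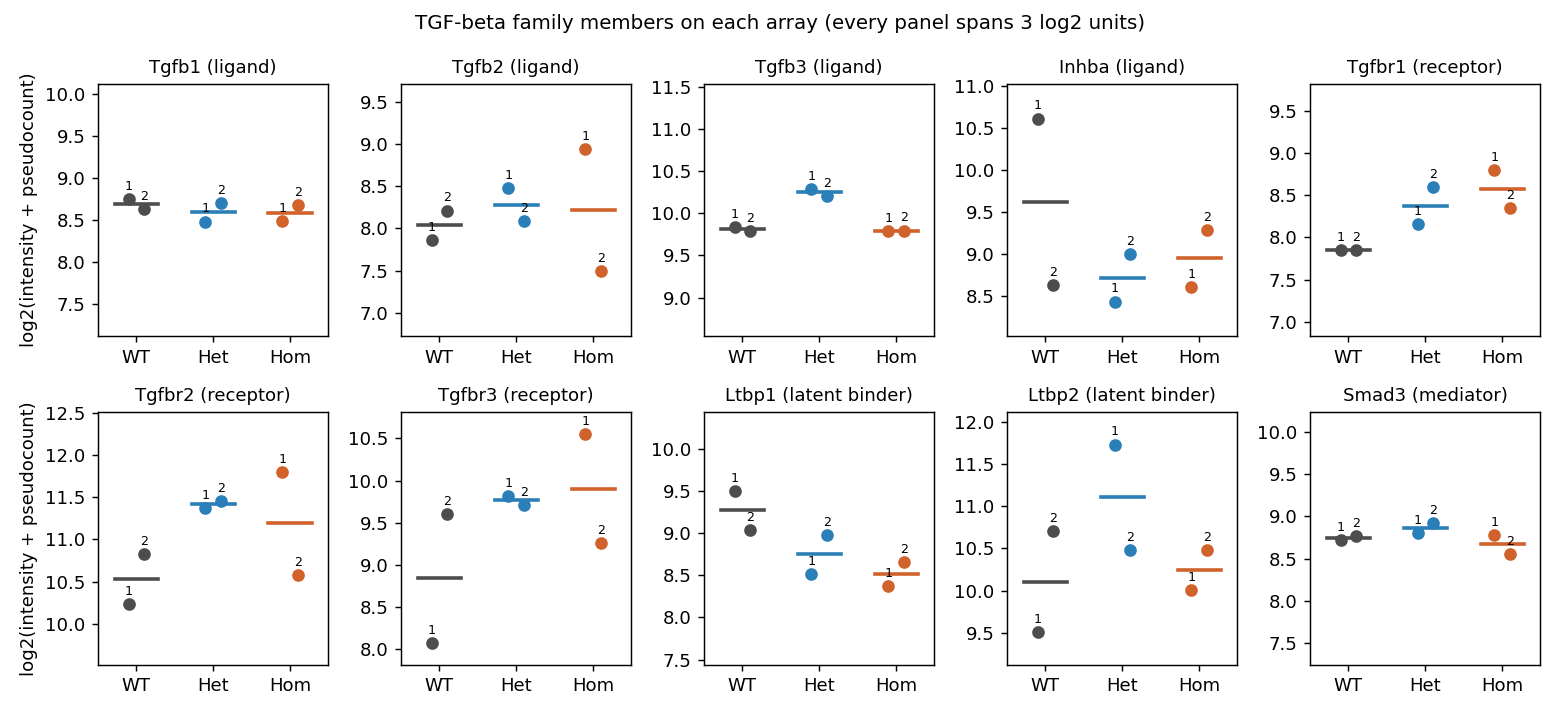
Log2 level of each of the 10 genes (vertical axis, log2 of intensity + pseudocount) on each array by genotype (horizontal axis: wild type, heterozygous, homozygous). Points are arrays, numbered by embryo, and lines are means of 2 arrays. Every panel spans the same log2 width, so that the narrow spread of Tgfb1 and Smad3 can be set against Inhba, where wild type 1 lies at 10.61, and Tgfb2, where the homozygote arrays lie at 8.94 and 7.49.

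Among the ligands, Tgfb1 (probe set 1420653_at, Entrez gene 21803), the TGF-beta form best known from fibrosis and immune regulation, had levels of 8.75 and 8.62 in the wild-type, 8.48 and 8.70 in the heterozygous and 8.48 and 8.68 in the homozygous cultures. The groups overlapped fully, over a range of 0.27 log2 units. The difference of homozygotes from the mean of the other genotypes was -0.06 (SE 0.19). A second Tgfb1 probe set (1445360_at) was dim, with a mean of 3.06, below the filter.

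Tgfb2 (1450923_at, Entrez gene 21808), the form known from heart and palate development, had levels of 7.86 and 8.21 in the wild-type, 8.48 and 8.09 in the heterozygous and 8.94 and 7.49 in the homozygous cultures. The homozygote cultures held both the highest and the lowest value of the 6 and lay 2.74-fold apart. In deposited intensity they were at 477 and 168, against 236 to 344 on the other 4 arrays. The other 3 probe sets of Tgfb2 repeated the gap, with log2 levels of 8.29 and 6.87 (1423250_a_at) and 5.80 and 4.70 (1438303_at) and deposited intensities of 255 and 90.3 (1450922_a_at) in homozygotes 1 and 2. Homozygote 2 was the lowest array in all 4 probe sets, and homozygote 1 was the highest in 3 of them. The mean difference of homozygotes from the other genotypes, 0.06 (SE 0.42), therefore describes neither culture, and it was -0.67 without homozygote 1 and 0.78 without homozygote 2.

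Tgfb3 (1417455_at, Entrez gene 21809), the form known from palate fusion, had levels of 9.84 and 9.79 in the wild-type, 10.29 and 10.21 in the heterozygous and 9.79 and 9.80 in the homozygous cultures. Both heterozygote arrays lay above the other 4, which were between 9.79 and 9.84. The difference was 0.43 (SE 0.21) for heterozygotes against wild type and -0.45 (SE 0.21) for homozygotes against heterozygotes, a 1.35-fold and a 1.37-fold difference. Neither passed limma's threshold (adjusted p = 0.84 and 1). Of the spread of Tgfb3 over the 6 arrays, 98.4% lay between genotypes, where the median gene had 34.1%, and Tgfb3 stood at the 99.9th percentile of the 11372 genes with a value. Without quantile normalization the share was 86.1%, at the 96.4th percentile. The deposited intensities were 1185 and 1309 in the heterozygous cultures, 1003 and 820 in the wild-type and 830 and 876 in the homozygous ones, so wild type 1 lay closer to the heterozygotes there. The summed intensity of 4 cartilage markers was also highest in the heterozygotes, at 364 and 277 against 150 to 227 on the other arrays, with 2 of the 4 (Sox9 and Col2a1) above the filter and none at 0. Its part in the Tgfb3 pattern was not tested.

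Inhba (1422053_at, Entrez gene 16323), the activin A subunit, had levels of 10.61 and 8.63 in the wild-type, 8.44 and 9.01 in the heterozygous and 8.61 and 9.29 in the homozygous cultures. Wild type 1 lay above every other array, and the other 5 overlapped across genotypes. Its deposited intensity was 1756, against 333 to 608 elsewhere. The homozygotes differed from wild type by -0.67 (SE 0.64, limma adjusted p = 0.97), and the difference was 0.32 without wild type 1. The summed intensity of 7 skeletal muscle markers was likewise highest in wild type 1, at 3108 against 186 to 1020 elsewhere, with 2 of the 7 above the filter. Most of the sum in wild type 1 came from 1 gene, Acta1, at a level of 11.54 there and 6.65 to 9.81 elsewhere. The part of these markers in the Inhba level was not tested. The second Inhba probe set was below the filter (mean 2.23).

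The sequences before annotated transcript starts of the ligand genes Tgfb1, Tgfb2 and Inhba differed in base composition. Tgfb1 varied least over the arrays, and Tgfb2 and Inhba were the ligand genes with the widest gaps between embryos of 1 genotype. Whether base composition goes with the spread over the arrays was not tested. Of the 10 genes, 8 had an entry in the RefSeq promoter table (GRCm38.p6), and Tgfb3 and Tgfbr3 did not match. Each line gives 250 bases, 5′ to 3′ on the gene's strand, ending just before the transcript start. For Tgfb2 and Inhba this start lies inside the gene's annotated span (chr1:186622787-186709697 and chr13:16004256-16031609). For Tgfb1 it is the start of the span. They are Tgfb1 at chr7:25686752-25687001 (plus strand), Tgfb2 at chr1:186705990-186706239 (minus strand) and Inhba at chr13:16011601-16011850 (plus strand). Capitals mark matches, on either strand, to TATAAA (the TATA box), CACGTG (an E-box), GGGCGG (a GC box) or CAGAC (a Smad-binding element).
Tgfb1: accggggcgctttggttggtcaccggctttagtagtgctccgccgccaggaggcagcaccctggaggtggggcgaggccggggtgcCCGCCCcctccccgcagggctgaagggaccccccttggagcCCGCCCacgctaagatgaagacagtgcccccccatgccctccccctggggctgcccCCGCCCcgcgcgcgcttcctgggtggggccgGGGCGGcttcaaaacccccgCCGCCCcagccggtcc
Tgfb2: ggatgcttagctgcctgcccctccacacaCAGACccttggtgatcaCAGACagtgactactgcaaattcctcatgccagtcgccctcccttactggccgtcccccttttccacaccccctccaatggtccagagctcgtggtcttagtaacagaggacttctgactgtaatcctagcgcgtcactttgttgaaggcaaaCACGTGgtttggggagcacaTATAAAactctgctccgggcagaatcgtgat
Inhba: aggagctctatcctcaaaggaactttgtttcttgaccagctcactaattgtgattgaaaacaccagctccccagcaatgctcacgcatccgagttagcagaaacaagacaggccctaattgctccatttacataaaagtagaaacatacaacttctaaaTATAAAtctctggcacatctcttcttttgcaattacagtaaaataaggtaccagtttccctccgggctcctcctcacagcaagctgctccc
The Tgfb1 stretch had 75.2% G and C and 5 GC box matches, with none of the other 3 motifs. The Tgfb2 stretch had 53.6% G and C, a TATAAA that began at position -31 from the start, 1 E-box and 2 CAGAC. The Inhba stretch had 43.2% G and C and a TATAAA at position -91. Of all 32851 promoter entries 12.4% held a TATA box match, 6.02% an E-box, 32.7% a GC box and 42.2% CAGAC, and the median G and C content was 52.4%. None of the windows of the other members held TATAAA or CACGTG. These are matches of letters, and no binding was measured.

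Among the receptors, Tgfbr1 (1420895_at, Entrez gene 21812), the type I kinase that phosphorylates the Smads, had levels of 7.85 and 7.86 in the wild-type, 8.15 and 8.60 in the heterozygous and 8.80 and 8.35 in the homozygous cultures. All 4 mutant arrays lay above both wild-type arrays, while heterozygotes and homozygotes overlapped. The mean was 7.85 ± 0.0055 in the wild-type, 8.38 ± 0.32 in the heterozygous and 8.57 ± 0.32 in the homozygous cultures (SD, n = 2). Homozygotes were 1.65-fold above wild type (log2 difference 0.72, SE 0.27), with an unadjusted p of 0.036 and a limma adjusted p of 0.97. The difference was 0.49 without homozygote 1 and 0.95 without homozygote 2, and lay between these values without any other array. A dimmer probe set of Tgfbr1 (1420894_at) gave 0.65 (SE 0.38), but there wild type 1 (5.21) lay above homozygote 2 (5.08) and both heterozygotes (4.98 and 5.12). The third probe set (1420893_a_at), below the filter, gave -0.06 (SE 0.35), and the mean of all 3 gave 0.44.

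Tgfbr2 (1426397_at, Entrez gene 21813), the ligand-binding type II kinase, had levels of 10.23 and 10.83 in the wild-type, 11.37 and 11.46 in the heterozygous and 11.80 and 10.58 in the homozygous cultures. The heterozygotes lay above both wild-type arrays, whereas homozygote 2 lay between the wild-type arrays and homozygote 1 above all others. The difference was 0.89 (SE 0.43) for heterozygotes and 0.66 (SE 0.43) for homozygotes against wild type (limma adjusted p = 0.84 and 0.97). The homozygote difference was 0.05 without homozygote 1, 0.36 without wild type 1, 1.27 without homozygote 2, 0.25 with the sex covariate and 0.31 with all probe sets averaged. The heterozygote difference was 0.59 without wild type 1, 1.53 with the sex covariate and 0.27 with all probe sets averaged. The second probe set above the filter (1425444_a_at) had the same lowest and highest arrays, wild type 1 at 7.11 and homozygote 1 at 8.46. Its differences were 0.49 (SE 0.42) and 0.54 (SE 0.42). A dim probe set below the filter (1422019_at, mean 2.60) went the other way. It gave -0.57 (SE 0.93) in heterozygotes and -0.28 (SE 0.93) in homozygotes against wild type.

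Tgfbr3 (1433795_at, Entrez gene 21814), the co-receptor betaglycan, had levels of 8.08 and 9.60 in the wild-type, 9.82 and 9.71 in the heterozygous and 10.55 and 9.26 in the homozygous cultures. It had the widest range of the 10 genes, 2.48 log2 units, from wild type 1 to homozygote 1. Homozygotes were 2.09-fold above wild type in the mean (1.07, SE 0.60, limma adjusted p = 0.97), but homozygote 2 lay below wild type 2. Without wild type 1 the difference was 0.31, without homozygote 1 it was 0.42, and with the sex covariate it was 0.19. Without wild type 2 it was 1.83 and without homozygote 2 it was 1.71. Heterozygotes differed from wild type by 0.93 (SE 0.60), and by 0.17 without wild type 1. The second probe set (1425620_at) had the same extremes, 5.02 in wild type 1 and 6.95 in homozygote 1.

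Macrophage markers had the same lowest and highest arrays as the 3 receptor genes, wild type 1 and homozygote 1. Centred on each gene's mean, the 16 macrophage markers had median levels of -1.09 and 0.31 in the wild-type, -0.29 and -0.51 in the heterozygous and 1.23 and 0.26 in the homozygous cultures. The 9 fibroblast markers were likewise lowest in wild type 1 but highest in heterozygote 2, with medians of -0.74 and -0.13, 0.23 and 0.28, and 0.17 and 0.02, and 5 of them were higher and 4 lower in homozygotes than in the others. The 3 receptor genes together were at -0.82 and -0.21, 0.32 and 0.33, and 0.75 and -0.25. The part of the cell makeup in these receptor levels was not tested, and in RNA of whole cultures fewer cells of a type and less RNA per cell cannot be told apart.

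**Figure D2:**
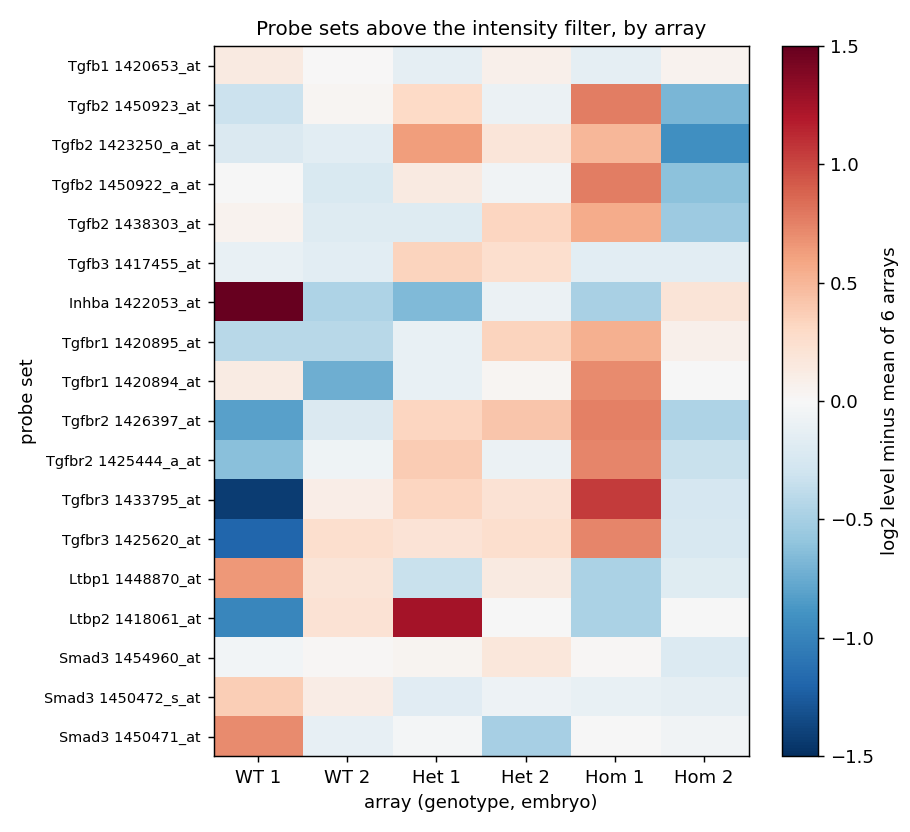
Each row is 1 of the 18 probe sets of the 10 genes above the intensity filter and each column 1 array. Colour gives the log2 level minus the mean of the 6 arrays, from blue (lower) to red (higher). The 4 Tgfb2 rows are red in homozygote 1 and blue in homozygote 2, the Tgfbr2 and Tgfbr3 rows are blue in wild type 1, and Inhba is red in wild type 1.

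The latent binders differed from each other. Ltbp1 (1448870_at, Entrez gene 268977), which tethers latent TGF-beta to the matrix, had levels of 9.50 and 9.04 in the wild-type, 8.52 and 8.98 in the heterozygous and 8.38 and 8.66 in the homozygous cultures. All 4 mutant arrays lay below both wild-type arrays, heterozygote 2 (8.98 against 9.04) narrowly, and the mutant genotypes overlapped. In deposited intensity, before normalization, heterozygote 2 (567) lay above wild type 2 (478). The share of the spread between genotypes was 69.9% with quantile normalization and 54.6% without it. Homozygotes were 1.69-fold below wild type (log2 difference -0.75, SE 0.29), with an unadjusted p of 0.038 and a limma adjusted p of 0.97. The difference lay between -0.98 and -0.52 with any single array left out, the smaller without wild type 1, and was -0.49 with the sex covariate. The summed intensity of 4 Schwann cell and neural markers, all above the filter, was 2073 and 1800 in the wild-type, 1314 and 1939 in the heterozygous and 444 and 467 in the homozygous cultures, and its part in the Ltbp1 levels was not tested. The other Ltbp1 probe sets were below the filter and gave -0.59 (SE 0.66) and -1.07 (SE 0.79), with wild type 1 the highest array in each.

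Ltbp2 (1418061_at, Entrez gene 16997), a relative that binds fibrillin microfibrils but not latent TGF-beta, had levels of 9.51 and 10.71 in the wild-type, 11.73 and 10.48 in the heterozygous and 10.01 and 10.48 in the homozygous cultures. All 3 genotypes overlapped, and heterozygote 1 was the highest array. Heterozygotes averaged 1.00 above wild type (SE 0.55), and without wild type 1 the difference was 0.40 and without heterozygote 1 it was 0.37. Its deposited intensity ran from 788 in wild type 1 to 3242 in heterozygote 1.

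Smad3 (1454960_at, Entrez gene 17127), the receptor-activated mediator, had levels of 8.71 and 8.77 in the wild-type, 8.80 and 8.92 in the heterozygous and 8.78 and 8.56 in the homozygous cultures. The arrays spanned 0.37 log2 units. Homozygotes differed from the other genotypes by -0.14 (SE 0.19), and the other probe sets gave -0.18 (SE 0.19) and -0.04 (SE 0.29). In both of those wild type 1 was highest, at 6.49 (1450472_s_at) and 6.24 (1450471_at). The probe sets disagreed on heterozygotes against wild type, with 0.12 (SE 0.22) for 1454960_at but -0.36 (SE 0.22) and -0.55 (SE 0.34) for the others. In 1450472_s_at both wild-type arrays lay above all 4 mutant arrays after normalization. In deposited intensity wild type 2 (66.5) lay below heterozygote 2 (74.3) and homozygote 1 (66.9) there. For 1454960_at the deposited intensity of heterozygote 1 (429) lay below that of wild type 1 (441).

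The comparison stated as the aim of the series, homozygotes against both other genotypes, called 0 of the 10 genes by limma (0 also at an unadjusted p under 0.05), against 0% of all probe sets called and 2.49% with an unadjusted p under 0.05. Of the 10 genes 4 had a higher and 6 a lower mean in the homozygotes, where 49.3% of probe sets were higher. The median difference was -0.10 over the members and -0.01 over all 11373 genes. The homozygote arrays overlapped the other 4 arrays for every one of the 10 genes, where 3.16% of genes lay fully above and 3.61% fully below. The widest differences were those of Tgfbr3 (0.60, SE 0.52), Ltbp1 (-0.49, SE 0.25) and Tgfbr1 (0.46, SE 0.24).

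Against wild type alone, homozygotes were higher for 5 and lower for 5 of the 10 genes (47.9% of probe sets were higher), with 0 called by limma (background 0%). At an unadjusted p under 0.05 there were 2, Tgfbr1 and Ltbp1, against 3.8% of probe sets. Tgfbr1 lay fully above and Ltbp1 fully below wild type, where 12.5% and 14.3% of genes did so. Heterozygotes were higher than wild type for 7 and lower for 3 of the 10 genes (48.9% of probe sets were higher), with a median of 0.34 against 0.0011 over all genes. None was called by limma (background 0%), and 0 had an unadjusted p under 0.05 (background 5.26%). The heterozygote arrays lay fully above wild type for 5 genes, Tgfb3, Tgfbr1, Tgfbr2, Tgfbr3 and Smad3, and fully below for Ltbp1, where 17.6% and 18.4% of genes did so. On a second probe set above the filter Smad3 lay fully below wild type, and Tgfbr1, Tgfbr2 and Tgfbr3 overlapped it. In deposited intensity, before normalization, the heterozygotes overlapped wild type in Ltbp1 and in both of these Smad3 probe sets. Between homozygotes and heterozygotes 3 genes were higher and 7 lower (49.3% of probe sets were higher), with 0 called (background 0%) and 0 at an unadjusted p under 0.05 (background 2.17%). Tgfb3 and Smad3 lay fully below the heterozygotes, as did 12.4% of genes, and no member lay fully above, where 10.5% of genes did. Counted by gene over all 11373, as for the members, homozygotes were higher than wild type for 5402 and lower for 5971. Heterozygotes were higher than wild type for 5707 and lower for 5666. Homozygotes were higher than heterozygotes for 5350 and lower for 6022. In the same order, 373, 492 and 221 genes had an unadjusted limma p under 0.05. These comparisons share arrays, so they do not support each other.

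**Figure D3:**
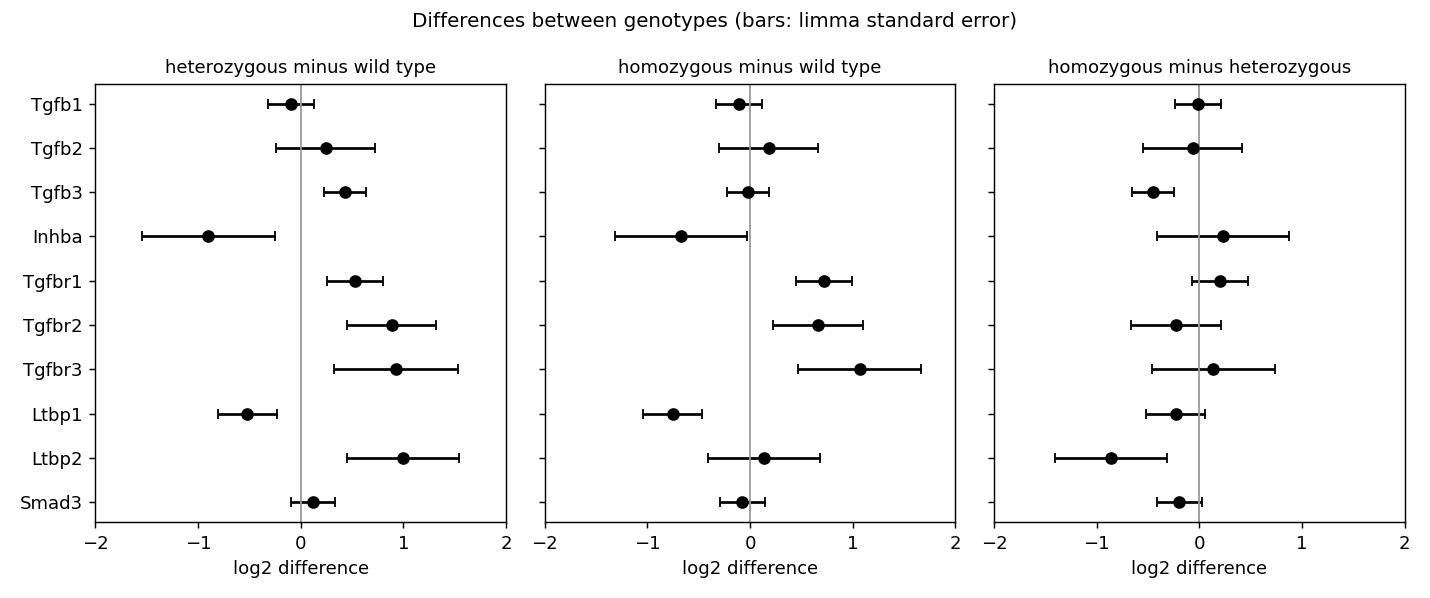
Log2 difference (horizontal axis) of each gene (vertical axis) in the 3 pairs of genotypes, with limma's standard error as bars. The 3 receptor genes lie above 0 and Ltbp1 below 0 in both mutant genotypes against wild type, and Tgfb3 lies away from 0 only in the 2 panels with heterozygotes. No gene passed the adjusted threshold in any panel.

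The spread between embryos set these limits. In 7 of the 10 genes the largest gap between the arrays of 1 genotype exceeded the largest gap between genotype means, as it did in 81.2% of the 11373 genes. The exceptions were Tgfb3, Tgfbr1 and Ltbp1, with 98.4%, 73.3% and 69.9% of their spread between genotypes. Without quantile normalization these shares were 86.1%, 63.2% and 54.6%. The smallest share was that of Tgfb2, 5.15%. Of the 10 genes 6 ranged over more than 1 log2 unit across the arrays, against 28.3% of genes.

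Other genes of the pathway were taken from a list of 56, of which 51 had a probe set of their own and 46 passed the filter. Homozygotes were higher than the other genotypes for 20 and lower for 26, with 0 called in either direction by limma, 1 (Nrros) at an unadjusted p under 0.05 and a median of -0.01. Of all probe sets 49.3% were higher, 0% were called and 2.49% had an unadjusted p under 0.05. In each role the 2 genes with the smallest F-test p are named. Among genes of latency and activation (9 measured, 5 higher and 4 lower in homozygotes, median 0.02) the microfibril gene Fbn2 had levels of 7.21 and 9.28 in the wild-type, 10.00 and 10.75 in the heterozygous and 9.71 and 8.51 in the homozygous cultures. Nrros, which holds latent TGF-beta on macrophages and microglia, was at 6.25 and 5.88 in the homozygotes and between 4.84 and 5.68 on the other arrays. Both homozygote cultures were the highest in Nrros (difference 0.77, SE 0.32, limma adjusted p = 1). All 16 macrophage markers above the filter were also higher in homozygotes, with a median difference of 1.25, and their part in the Nrros level was not tested.

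Of the other ligands 3 passed the filter (1 higher, 2 lower). Inhbb, a second activin subunit, was at 8.12 and 7.81, 6.48 and 7.94, and 7.46 and 7.48, and Inha, the inhibin subunit, differed by -0.25 (SE 0.26). Of the other receptors 5 passed (2 higher, 3 lower, median -0.00017). The activin receptor Acvr2a was at 7.48 and 8.42 in wild type, below the mutant arrays at 8.96 and 8.69 and at 8.65 and 8.56, and Acvr1b, a type I activin receptor, differed by -0.00017 (SE 0.22). Of the Smads and nuclear cofactors 6 were measured (3 higher, 3 lower, median 3e-05). Tgif1, a corepressor of Smads, was at 8.91 and 8.36, 7.85 and 8.18, and 8.15 and 8.40, and the corepressor Ski was lowest in wild type 1, at 8.45 against 9.09 to 9.68 elsewhere.

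The inhibitors were lower in homozygotes than in the others for 7 of 8, with a median of -0.28 and 0 called. Of all probe sets 49.3% were higher and 0% were called. The count leaned on single arrays. Without homozygote 1, Smurf1 was at 0.05 and Fstl3 at 0.13, and without heterozygote 1 Bambi was at 0.02. Smad6, the inhibitor that was higher, was at -0.16 without heterozygote 2. Smad7, Smurf2, Fst and Pmepa1 stayed lower with any single array left out. Follistatin (Fst), which sequesters activin, had levels of 9.71 and 9.38 in the wild-type, 8.83 and 8.77 in the heterozygous and 9.02 and 8.72 in the homozygous cultures. Both wild-type arrays lay above all mutant arrays in Fst, and the difference of homozygotes from wild type was -0.68 (SE 0.24, unadjusted p = 0.029, limma adjusted p = 0.97). A second Fst probe set gave -0.75 (SE 0.25). Fstl3, a relative of follistatin, was at 8.22 and 7.98, 7.43 and 7.26, and 6.22 and 7.85.

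Of the targets in fibroblasts 15 were measured, 8 higher and 7 lower in homozygotes, with a median of 0.02. Periostin (Postn), a matrix protein, had levels of 11.26 and 12.03 in the wild-type, 12.76 and 12.74 in the heterozygous and 12.78 and 12.67 in the homozygous cultures. The wild-type arrays lay below all mutant arrays, with a difference of 1.08 (SE 0.30, unadjusted p = 0.010, limma adjusted p = 0.97) for homozygotes. It was 0.69 without wild type 1. Col1a1, a chain of collagen I, was at 12.46 and 12.98, 13.28 and 13.43, and 13.34 and 12.93. The myofibroblast gene Acta2 and the connective tissue growth factor gene Ccn2 were named after their values were seen. The brightest Acta2 probe set (1416454_s_at) lay between 13.30 and 13.73 on all arrays. Another (1444105_at) was at 6.43 and 5.90 in the wild-type cultures, above the 4 mutant arrays at 4.89 to 5.81. Its differences from wild type were -1.12 (SE 0.36) in heterozygotes and -0.81 (SE 0.36) in homozygotes (limma adjusted p = 0.84 and 0.97). Probe set 1456658_at of Acta2, below the filter (mean 4.55), went the other way. There the differences from wild type were 0.83 (SE 0.60) in heterozygotes and 1.23 (SE 0.60) in homozygotes. Ccn2 was at 13.32 in wild type 1, the array with the highest Inhba, and between 11.83 and 12.63 on the others.

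**Figure D4:**
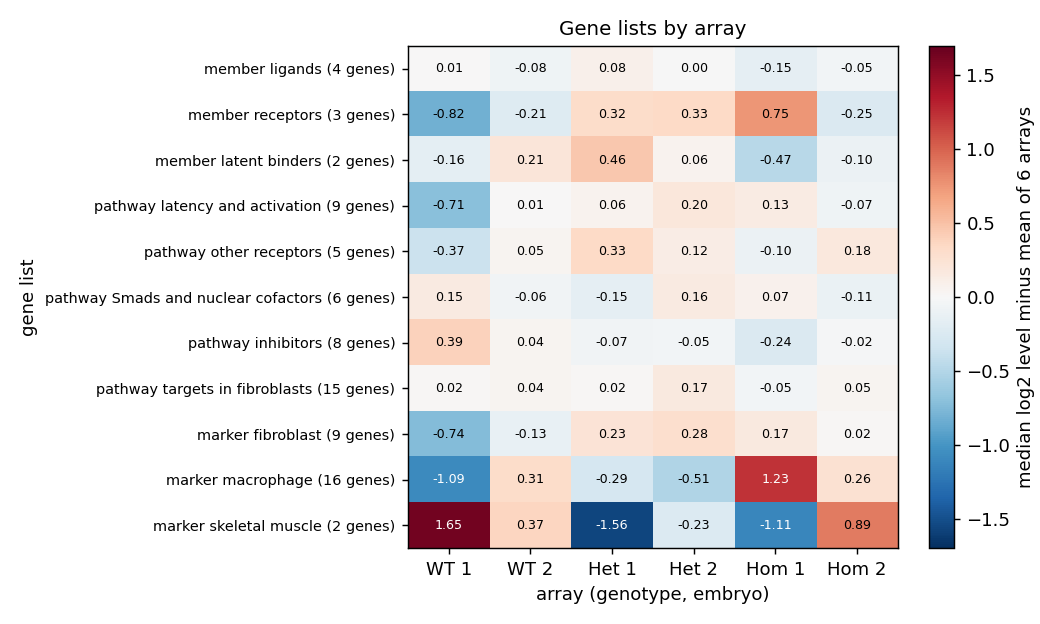
Median log2 level of each gene list (rows) on each array (columns), relative to the mean of the 6 arrays, with the value written in each cell. The receptors of the set run from -0.82 in wild type 1 to 0.75 in homozygote 1, and the macrophage markers from -1.09 to 1.23 in the same arrays. The median of the targets in fibroblasts stays between -0.05 and 0.17, but some single targets varied far more. For Tgfbi, named after its values were seen, the difference of homozygotes from wild type was -0.53 without wild type 1 and 2.84 without wild type 2.

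Of the set, Tgfbr3 and Ltbp2 had the widest ranges over the arrays, and the genes most like them over the 6 arrays were sought among genes above the filter. For Tgfbr3 these were Ccpg1, Tapbp and Dpt (Pearson's r across 6 arrays 1.00, 0.99 and 0.99), where 161 genes had an r above 0.95. Dpt, which encodes the matrix protein dermatopontin, had levels of 5.23 and 7.81 in the wild-type, 8.26 and 7.63 in the heterozygous and 9.15 and 7.12 in the homozygous cultures. For Ltbp2 they were Selenon, Pamr1 and Mindy1 (r of 0.99 for each), where 61 genes had an r above 0.95. Pamr1 ran from 5.01 in wild type 1 to 8.84 in heterozygote 1. These values describe the 6 arrays only, which differ in genotype, sex and cell makeup as described above.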

How the data were processed

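Total RNA of 6 fibroblast cultures was hybridised to Affymetrix arrays as biotin-labelled cRNA made from 2 µg each, per the labels' protocols. By their range, the deposited values are intensities of probe sets on a linear scale. The authors' scanning, summary and scaling steps are not stated in the sources used here. Intensities were converted to log2 with a pseudocount of 1.78 (their 10th percentile) and quantile normalized, since the log2 medians spanned 0.29 (limit 0.1). Fold changes of dim probe sets are understated on this scale. The brighter 50% of 45037 probe sets by mean were tested, 22519 in all (lowest mean 4.57), after leaving out 64 controls. Of the array's probe sets 34945 had 1 symbol in a platform annotation updated through a GRCm38.p6 gene table, 932 several and 9160 none. The probe set with the highest mean stood for a gene. All 6 arrays entered 1 fit in limma 3.58.1 (R 4.3.3) with 3 residual and 3.28 prior degrees of freedom, and p-values were adjusted by Benjamini-Hochberg at 0.05. The fit was tested on simulated data. SE is from this fit, and SD is of 2 arrays. P-values rest only on the spread between embryos, each with 1 culture. Genes without a usable probe set in the lists, such as Fbn1, were not analysed here. The alternatives were no quantile normalization, a pseudocount of 16, no filter, averaged probe sets, an embryo sex score (Y-linked genes minus Xist) as a covariate, a replicate block and each array left out. Same-numbered arrays did not deviate together (correlations of -0.36, -0.14 and -0.14), so no pairing was assumed. The members and lists were chosen with earlier results of these data known. Pathway genes besides the members were named as the 2 of each role with the smallest F-test p. Acta2, Ccn2, Tgfbi and the inhibitors besides Fst and Fstl3 were named outside this rule, after their values were seen. Other genes were named as the 3 most correlated with each of the 2 widest-ranging members, or as markers.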

Additional observations from a re-analysis of the deposited data

How the results depend on the processing

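No member was called by limma in any of the 4 comparisons or by the F-test under any alternative, including the replicate block, which gave 0 members and 0 probe sets called and turned no direction. Over all probe sets the count of 0 became 1 (heterozygotes against wild type, sex covariate). With single arrays left out it ranged from 0 to 2 for homozygotes against the others and from 0 to 3 in homozygotes against heterozygotes, heterozygotes against wild type and the F-test. It was 3 in each of the last 3 without wild type 1. Without wild type 2 it was 2 in homozygotes against the others, homozygotes against heterozygotes and the F-test, and 0 in heterozygotes against wild type. The cause was not tested in any case below. No direction turned with a pseudocount of 16. The replicate block and the filter could not turn a direction. Each replicate number holds 1 array of each genotype, and the filter acts after normalization, so both leave every difference as it was.

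Without quantile normalization Tgfb2 in homozygotes against the others was at -0.019 and Tgfb1 in heterozygotes against wild type at 0.0018. With averaged probe sets, which add dim ones, Tgfb1 was at 0.37 (against the others), 0.076 (wild type) and 0.66 (heterozygotes) in homozygotes, Tgfb2 at -0.035 against the others, and Inhba at -0.0043, Tgfbr2 at 0.039 and Smad3 at 0.013 against heterozygotes, where 5 members were higher and not 3. Smad3 in heterozygotes against wild type was at -0.27. With the sex covariate, which only the wild-type pair can separate from genotype, homozygotes against the others had Tgfb1 at 0.090, Tgfb2 at -0.50, Inhba at 1.65, Tgfbr2 at -0.51 and Tgfbr3 at -0.96. Against wild type Tgfb2 was at -0.13, Tgfb3 at 0.0015, Inhba at 0.38 and Ltbp2 at -0.43, and against heterozygotes Tgfb1 was at 0.20, Tgfbr3 at -2.11 and Ltbp1 at 0.44.

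With each array left out in turn, homozygotes against the others ranged from -0.16 to 0.036 for Tgfb1, -0.67 to 0.78 for Tgfb2, -0.71 to 0.27 for Inhba, -0.39 to 0.83 for Tgfbr2 and -0.047 to 1.25 for Tgfbr3. Against wild type the ranges were -0.54 to 0.91 for Tgfb2, -0.046 to 0.0021 for Tgfb3, -1.66 to 0.32 for Inhba, -0.46 to 0.74 for Ltbp2 and -0.19 to 0.036 for Smad3. Against heterozygotes they were -0.12 to 0.098 for Tgfb1, -0.79 to 0.66 for Tgfb2, -0.11 to 0.57 for Inhba, -0.031 to 0.42 for Tgfbr1, -0.84 to 0.38 for Tgfbr2, -0.51 to 0.79 for Tgfbr3 and -0.47 to 0.00073 for Ltbp1, with 2 to 5 members higher. Heterozygotes against wild type ranged from -0.21 to 0.013 for Tgfb1 and -1.89 to 0.089 for Inhba. With 1 array left in a genotype, that array is assumed to vary like the others.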
